A study of Mus musculus with 79 samples.

Results

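Ribosome-bound mRNA from neurons that use the dopamine D1 receptor promoter was compared between the prefrontal cortex and the dorsal striatum of the mouse, across all genes. The libraries were chosen by their labels: 19 D1 prefrontal cortex libraries and 15 D1 dorsal striatum libraries, 34 of the 79 in the series, are called cortex and dorsal libraries here. They were made by bacTRAP, in which a transgene on a bacterial artificial chromosome (BAC) places ribosomal protein L10a, fused to eGFP, under the Drd1a promoter, and the tagged ribosomes are pulled down with a GFP antibody together with the mRNA they carry. Both groups carried this transgene, heterozygous on a C57BL/6J background, and the labels give no drug and no age. Each library pooled tissue of 3 mice, males and females together in all but 2 cortex libraries whose sex label is incomplete, with cortex taken as a dissected piece and dorsal striatum as a punch. A library therefore holds mRNA from every cell type that used the promoter in the piece, averaged over the pool, and a lower level can mean fewer cells of a type or less RNA per cell, which cannot be told apart in such samples.

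In the dorsal striatum the D1 receptor marks the spiny projection neurons of the direct pathway, GABA-releasing cells that make up a large part of the tissue. There the receptor couples through the G protein Golf to adenylyl cyclase 5, and the cyclic AMP made activates protein kinase A, whose target DARPP-32 inhibits protein phosphatase-1. In the prefrontal cortex the receptor is found on glutamate-releasing pyramidal neurons, largely of the deep layers, and on several classes of GABA-releasing interneuron. The comparison asks how the same receptor-defined population differs between the regions.

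Values are in counts-per-million (CPM), the reads of a gene scaled to the library's total. Reads in listed genes ran from 9810953 to 25143655 in cortex libraries (median 14559725) and from 9565544 to 28004354 in dorsal libraries (median 16315197), so 1 read was worth far less than the 1 CPM needed for testing. The share of the scaled total that lay in genes was 35.4% ± 2.63 (SD, n = 19) in cortex and 35.4% ± 2.45 (SD, n = 15) in dorsal striatum. Library names begin with letter codes of unstated meaning (EM, BdP, JAG). EM libraries were 15 of the cortex and 11 of the dorsal group, so the counts, gene lists and named genes of cortex against dorsal striatum were also computed within codes.

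Of 25899 gene symbols, 11654 reached 1 CPM in at least 15 of the 34 libraries and were tested with limma on log2(CPM + 0.5). A gene could enter through the group where it was high alone. The adjusted p (Benjamini-Hochberg over all genes tested) was under 0.05 for 6388 genes, 54.8% of those tested, and such genes are called different below. Of these, 3766 (32.3%) were higher and 2622 (22.5%) lower in cortex. This split turned round with edgeR on the recovered reads (3119 higher, 3472 lower) and, narrowly, with quantile normalization (3353 higher, 3439 lower). A difference of at least 2-fold was found for 1870 called genes (16%), of which 1244 (10.7%) were higher and 626 (5.37%) lower in cortex. For 749 genes (6.43%) every cortex library lay above every dorsal library, and for 479 genes (4.11%) every dorsal library lay above every cortex library. These shares are the background for the counts below. All log2 differences are cortex minus dorsal striatum, and over all genes tested their median was 0.05, with 5% below -1.05 and 5% above 1.55.

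**Figure D1:**
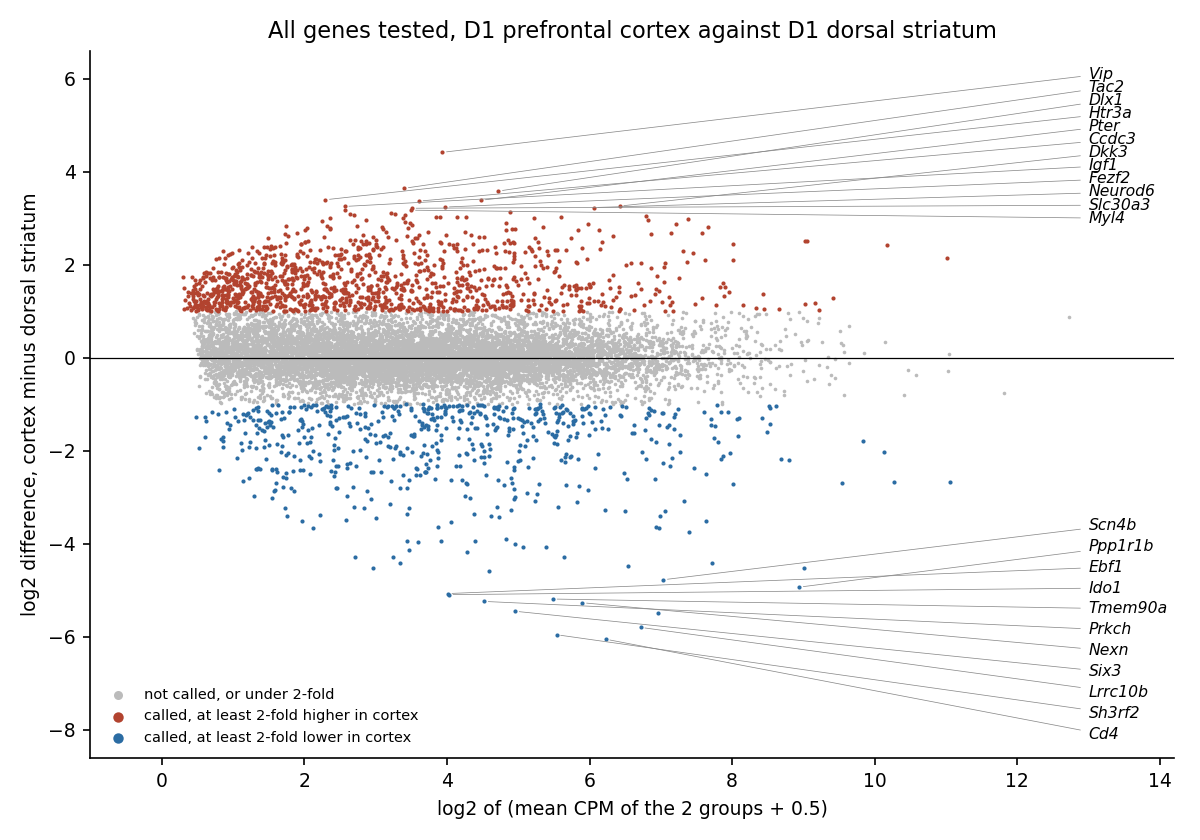
Log2 difference (cortex minus dorsal striatum, on log2(CPM + 0.5)) against the mean level of each of 11654 genes tested; coloured points are the called genes with at least a 2-fold difference, 1244 higher and 626 lower in cortex, and names are given for genes among the 12 with the largest difference on each side. The named genes on the striatal side reach larger differences than those on the cortical side.

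The targeted gene and the markers of both regions were examined first. Drd1a, the older symbol of the D1 receptor gene whose promoter drives the tag, read 9.52 to 44.8 CPM in cortex (median 16.7) and 163 to 288 CPM in dorsal striatum (median 232). It was present in all 34 libraries, every dorsal library lay above every cortex library, and the log2 difference was -3.65 ± 0.14 (SE). In the 16 D2 dorsal striatum libraries of the series, which use another driver, it read 6.86 to 40.6 CPM (median 12.1), near the level in cortex. Slc17a7, the vesicular glutamate transporter of cortical pyramidal neurons, read 136 to 437 CPM in cortex (median 236) and 10.1 to 54.4 CPM in dorsal striatum (median 38.6). Adcy5, the adenylyl cyclase of spiny neurons, read 14.6 to 34.5 CPM in cortex (median 20.9) and 172 to 296 CPM in dorsal striatum (median 220.1). Both separated the groups without overlap, at log2 differences of 2.87 ± 0.18 and -3.39 ± 0.11 (SE).

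Markers of other cell types moved with the groups. The summed CPM of 15 striatal projection neuron markers was 231 to 762 CPM (median 312) in cortex and 3712 to 5628 CPM (median 4304) in dorsal libraries. That of 11 cortical excitatory neuron markers was 916 to 1359 CPM (median 1063) in cortex and 132 to 293 CPM (median 242) in dorsal libraries. Each region's libraries thus carried some reads of the other region's markers. In the 16 D2 dorsal striatum libraries Slc17a7 read 0.709 to 11.8 CPM (median 3.01), below most D1 dorsal libraries. The summed CPM of 15 GABA interneuron markers was 162 to 362 CPM (median 248) in cortex and 102 to 149 CPM (median 126) in dorsal libraries. Of 12 tested, 10 were higher and 2 lower in cortex (median log2 difference 1.95). The 2 lower, Reln and Lamp5, made up much of the dorsal sum and little of the cortex sum. That of 9 astrocyte markers was 191 to 491 CPM (median 336) in cortex and 36.8 to 175 CPM (median 75.6) in dorsal libraries, without overlap, and 8 of the 9 were called higher in cortex. Slc1a2, the glial glutamate transporter that some neurons also carry as mRNA, made up most of that sum, at 168 to 434 CPM in cortex (median 293) and 23.2 to 145 CPM in dorsal striatum (median 63.3). Summed CPM of 9 oligodendrocyte markers went the other way, 49.2 to 113 CPM (median 59.2) in cortex and 76.0 to 233 CPM (median 107) in dorsal libraries. Of its 5 members tested, 4 were lower in cortex (median log2 difference -0.71), but 2 in EM libraries alone (-0.49), 2 with array weights (-0.47), 2 in EM libraries paired by name (-0.46) and all 5 in BdP and JAG libraries (-1.50). Cholinergic interneuron markers summed to 1.95 to 7.75 CPM (median 4.36) in cortex and 0.654 to 2.52 CPM (median 1.22) in dorsal libraries. The 1 tested, Slc17a8, was called higher in cortex and made up most of the cortex sum. With no filter, 1 of 4 was higher and 2 were lower in cortex (median log2 difference -0.29). The lists for oligodendrocyte precursors, endothelial cells and choroid plexus had no member that passed the filter. Precursor markers summed to 0.632 to 7.61 CPM (median 2.72) in cortex and 0 to 3.66 CPM (median 1.48) in dorsal libraries, and endothelial markers to 0 to 7.68 CPM (median 0.573) in cortex and 0 to 1.34 CPM (median 0.149) in dorsal libraries. The choroid plexus and ependyma list still summed to 0.163 to 7.70 CPM (median 0.9) in cortex and 0.589 to 41.7 CPM (median 5.06) in dorsal libraries, and the 8 microglia markers to 3.10 to 10.4 CPM (median 6.09) in cortex and 2.78 to 7.85 CPM (median 3.85) in dorsal libraries. What part these cells had in the results below was not tested. Some libraries stood apart. The striatal marker sum was highest in cortex replicate 6 (762 CPM), followed by 3 of the 4 BdP and JAG cortex libraries (605 to 661 CPM). On the second principal component, 10.8% of the variance, dorsal replicate 13 and cortex replicate 10 lay farthest out. Dorsal replicate 13 also had the fewest genes above 0, 13465. Without these 3 replicates (cortex 6 and 10, dorsal 13), 6677 genes were called, 3902 higher and 2775 lower.

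**Figure D2:**
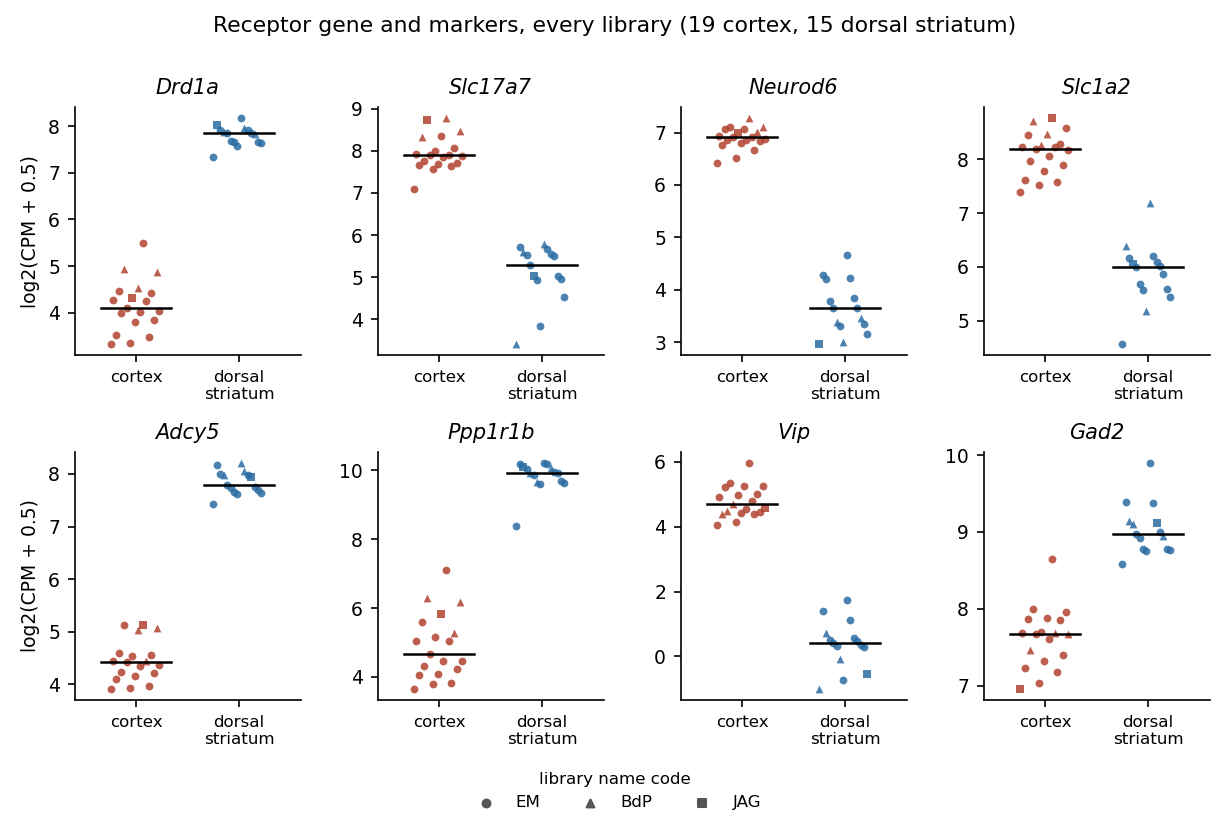
Level in every library (log2(CPM + 0.5), 19 cortex and 15 dorsal libraries, horizontal bars are medians, symbols give the name code) of Drd1a and markers of cortical excitatory neurons, striatal projection neurons, interneurons and astrocytes. Slc17a7, Neurod6 and Vip are higher and Drd1a, Adcy5 and Ppp1r1b lower in every cortex library, and Slc1a2 is higher in every cortex library.

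On the cortical side the 12 genes with the largest differences included pyramidal neuron and interneuron genes. Vip, the peptide of an interneuron class, read 16.2 to 62.1 CPM in cortex (median 25.2) and 0 to 2.85 CPM in dorsal striatum (median 0.823), a log2 difference of 4.42 ± 0.20 (SE; limma, adjusted p = 6.6e-22). Tac2, the neurokinin B precursor, read 12.5 to 32.9 CPM in cortex (median 16.5) and 0 to 2.81 CPM in dorsal striatum (median 1.11). The interneuron transcription factor Dlx1 read 25 to 67.5 CPM in cortex (median 47.9) and 1.52 to 10.9 CPM in dorsal striatum (median 3.19). Htr3a, the serotonin-gated channel that marks a caudal class of interneurons, read 5.26 to 14.7 CPM in cortex (median 7.92) and 0 to 1.74 CPM in dorsal striatum (median 0.315). Pyramidal genes were led by Dkk3, a secreted Dickkopf family protein, at 92.0 to 255 CPM in cortex (median 148) and 7.59 to 29.9 CPM in dorsal striatum (median 15.3). Fezf2, the transcription factor of subcortically projecting layer 5 neurons, read 17.8 to 41.7 CPM in cortex (median 25.7) and 0.305 to 6.59 CPM in dorsal striatum (median 2.77). Slc30a3, which loads zinc into glutamatergic vesicles, read 11.1 to 25.7 CPM in cortex (median 19.9) and 0.122 to 3.71 CPM in dorsal striatum (median 1.96). Neurod6 read 85.2 to 154 CPM in cortex (median 119.7) and 7.28 to 24.7 CPM in dorsal striatum (median 12.1). The remaining genes were Pter, Ccdc3, Igf1 and Myl4, at log2 differences of 3.39, 3.37, 3.25 and 3.17. In each of the 12 the lowest cortex library lay above the highest dorsal library.

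On the striatal side the differences were larger. Cd4, better known as a T-cell co-receptor, read 0.116 to 13.7 CPM in cortex (median 0.928) and 102 to 194 CPM in dorsal striatum (median 146), a log2 difference of -6.05 ± 0.35 (SE; limma, adjusted p = 1.3e-18). Six3, a homeobox factor, read 0 to 7.48 CPM in cortex (median 0.417) and 40.0 to 86.7 CPM in dorsal striatum (median 57.3). Ebf1, a factor of direct-pathway neurons, read 0 to 2.65 CPM in cortex (median 0.327) and 15.9 to 44.1 CPM in dorsal striatum (median 27.6). Ppp1r1b, which encodes DARPP-32, read 12.1 to 139 CPM in cortex (median 24.8) and 334 to 1192 CPM in dorsal striatum (median 973), a log2 difference of -4.93 ± 0.25 (SE). Scn4b, a sodium channel beta subunit, read 4.40 to 21.7 CPM in cortex (median 7.16) and 198 to 306 CPM in dorsal striatum (median 261). Prkch, the eta isoform of protein kinase C, read 0.026 to 6.12 CPM in cortex (median 0.459) and 32.2 to 52.9 CPM in dorsal striatum (median 44.4). Ido1, which opens the kynurenine route of tryptophan breakdown, read 0 to 3.13 CPM in cortex (median 0.186) and 20.7 to 59.2 CPM in dorsal striatum (median 26.9). The others were Sh3rf2, Lrrc10b, Nexn and Tmem90a (now Syndig1l), at log2 differences of -5.95, -5.80, -5.27 and -5.19. In each gene named here every dorsal library lay above every cortex library.

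Transcription factors divided by region. Of 23 cortical factors tested, 20 were higher and 3 lower in cortex, with a median log2 difference of 2.20 beside 0.05 for all genes. Tbr1, of layer 6, read 70.5 to 121 CPM in cortex (median 94.5) and 4.08 to 22.8 CPM in dorsal striatum (median 16.3). Mef2c, which limits synapse number, read 269 to 427 CPM in cortex (median 376) and 91.8 to 157 CPM in dorsal striatum (median 138). The exceptions were Cux1, Lmo3 and Pou3f1, with medians of 29.7 and 51.2 CPM, 78.2 and 168 CPM and 2.57 and 16.6 CPM (cortex and dorsal striatum in that order, as in all pairs of medians below). Of 15 deep layer genes tested, 9 were higher and 4 lower in cortex. Bcl11b and Foxp2, deep layer markers that spiny neurons share, were among those lower. Bcl11b read 23.1 to 50.6 CPM in cortex (median 30.7) and 124 to 285 CPM in dorsal striatum (median 199). Foxp2 read 6.08 to 19.9 CPM in cortex (median 10.1) and 69.4 to 189 CPM in dorsal striatum (median 88.0). Rprm, another layer 6 gene, was higher in cortex, at 6.75 to 24.0 CPM in cortex (median 12.9) and 0.295 to 7.30 CPM in dorsal striatum (median 2.12). Of 7 upper layer genes tested, 5 were higher, and Cux1 alone was lower. Among those higher were the factors Rorb and Cux2, with medians of 35.4 and 7.19 CPM and 23.9 and 10.0 CPM.

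Interneuron transcription factors were mostly higher in cortex, 12 of 15 tested, with 3 lower (median log2 difference 1.93). Factors of the medial eminence lineage, which yields parvalbumin and somatostatin cells, were among them. Lhx6 read 5.37 to 13.8 CPM in cortex (median 8.01) and 0.523 to 3.40 CPM in dorsal striatum (median 1.94). Its target Sox6 read 3.26 to 10.3 CPM in cortex (median 5.72) and 0.426 to 2.45 CPM in dorsal striatum (median 1.38). So were those of the caudal lineage. Prox1 read 11.3 to 31.5 CPM in cortex (median 19.2) and 1.72 to 10.7 CPM in dorsal striatum (median 5.44). Nr2f2, also called COUP-TFII, read 5.02 to 13.8 CPM in cortex (median 9.09) and 1.66 to 6.54 CPM in dorsal striatum (median 2.77). Maf, a factor of medial eminence interneurons, read 5.53 to 16.5 CPM in cortex (median 10.0) and 0.264 to 1.43 CPM in dorsal striatum (median 0.705), at a log2 difference of 3.17 ± 0.14 (SE). The Dlx genes, homeobox factors of forebrain GABA neurons, parted company. Dlx1 and Dlx2 were higher in cortex, at log2 differences of 3.6 and 1.80, and Dlx5 and Dlx6 were lower, at -1.52 and -2.77. Dlx6 read 0.525 to 2.08 CPM in cortex (median 1.05) and 7.78 to 13.1 CPM in dorsal striatum (median 10.6), with no overlap. Dlx5 read 3.57 to 10.0 CPM in cortex (median 5.93) and 6.67 to 24.3 CPM in dorsal striatum (median 18.2), with 1 dorsal library inside the cortex range. Lhx6, Sox6 and Prox1 are themselves part of the interneuron marker sum given above. The other 9 factors that were higher moved with that sum, and the 3 that were lower, Dlx5 and Dlx6 among them, went against it. In EM libraries alone 2 were called lower.

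None of 17 striatal transcription factors tested was higher in cortex and 14 were lower, with a median log2 difference of -2.60. Isl1, a determinant of direct-pathway neurons, read 0 to 1.13 CPM in cortex (median 0.029) and 7.33 to 14.7 CPM in dorsal striatum (median 12.0). Foxp1, expressed by spiny neurons of both pathways, read 67.2 to 146 CPM in cortex (median 81.8) and 242 to 529 CPM in dorsal striatum (median 344). Meis2, a homeobox factor of the lateral eminence lineage, read 32.8 to 92.8 CPM in cortex (median 41.4) and 146 to 329 CPM in dorsal striatum (median 225). Zfp503, the Nolz1 factor of striatal progenitors, read 0.0698 to 1.63 CPM in cortex (median 0.444) and 7.64 to 12.8 CPM in dorsal striatum (median 10.3). Ikzf1, the Ikaros factor, read 0 to 1.6 CPM in cortex (median 0.143) and 1.47 to 9.01 CPM in dorsal striatum (median 5.30), with 14 of 15 dorsal libraries above every cortex library.

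Of 22 genes of the dopamine and cyclic AMP cascade, 17 were lower and 5 higher in cortex, and the median log2 difference was -1.73. The receptor's G protein followed Drd1a. Gnal, the Golf alpha subunit, read 86.2 to 259 CPM in cortex (median 147) and 502 to 1043 CPM in dorsal striatum (median 621). Gng7, its gamma subunit, read 7.89 to 64.7 CPM in cortex (median 15) and 259 to 536 CPM in dorsal striatum (median 379). The beta subunit Gnb1 was higher in cortex, with medians of 461 and 365 CPM, a call lost in BdP and JAG libraries alone (adjusted p = 0.0845). Protein kinase A subunits did not share a direction. The regulatory subunit Prkar1b read 254 to 359 CPM in cortex (median 298) and 104 to 197 CPM in dorsal striatum (median 139). Prkar2b, the type II beta subunit, read 17.5 to 34.5 CPM in cortex (median 22.8) and 48.2 to 69.6 CPM in dorsal striatum (median 55.1). Neither overlapped between groups. The catalytic subunits differed less, with log2 differences of 0.65 ± 0.17 (SE) for Prkaca and -0.21 ± 0.08 (SE) for Prkacb, and both overlapped between groups. The call of Prkacb was lost within EM libraries alone (adjusted p = 0.0527) and within BdP and JAG libraries alone (adjusted p = 0.0584). Akap5, the anchor that holds the kinase at the postsynaptic membrane, read 69.8 to 110.5 CPM in cortex (median 78.6) and 288 to 475 CPM in dorsal striatum (median 372). The other kinase subunits called higher in cortex were Prkar1a and Prkar2a, at log2 differences of 0.25 ± 0.10 and 0.92 ± 0.10 (SE). The call of Prkar1a was lost under 8 of 17 alternatives (adjusted p of 0.0502 to 0.299) and without any 1 of cortex replicates 2, 9, 10 and 17 and dorsal replicates 2, 8, 11, 12 and 15 (adjusted p of 0.0514 to 0.0684). Targets and phosphatases on the list, Ppp1r1b, Ppp1ca, Ppp1cb, Arpp19, Arpp21, Ptpn5 and Rasd2, were each lower in cortex. Ppp1ca and Ppp1cb, catalytic subunits of protein phosphatase-1, differed by -1.19 ± 0.20 and -0.27 ± 0.10 (SE), and the call of Ppp1cb was lost in EM libraries alone (adjusted p = 0.0949). Ptpn5, the striatal-enriched phosphatase STEP, read 24.0 to 68.2 CPM in cortex (median 31.4) and 193 to 358 CPM in dorsal striatum (median 284). Arpp21, a regulated phosphoprotein, read 131 to 346 CPM in cortex (median 193) and 1013 to 1788 CPM in dorsal striatum (median 1253). Rasd2, the small GTPase Rhes, read 10.4 to 48.4 CPM in cortex (median 20.7) and 144 to 450.0 CPM in dorsal striatum (median 286).

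The enzymes that make and break cyclic nucleotides differed by isoform. Among 10 cyclases tested, 4 were higher and 4 lower in cortex (median log2 difference -0.14, and 0.02 with no filter, 5 higher and 4 lower of 12, and -0.31 with a 5 CPM filter, 2 higher and 4 lower of 8, and -0.27 to -0.05 under the 15 alternatives that kept the filter). Calcium-stimulated Adcy1 read 84.1 to 168 CPM in cortex (median 127) and 14.8 to 55.1 CPM in dorsal striatum (median 36.4). Adcy2, stimulated by G protein beta-gamma subunits, read 20.1 to 36.3 CPM in cortex (median 27.7) and 0.934 to 8.74 CPM in dorsal striatum (median 5.93). In both every cortex library lay above every dorsal library, opposite to Adcy5. Of 14 phosphodiesterases tested, 8 were lower and 5 higher in cortex (median log2 difference -0.71, and 0.13 with no filter, 7 higher and 8 lower of 18). Pde10a, the dual-substrate enzyme of spiny neurons, read 17.3 to 151 CPM in cortex (median 32.5) and 559 to 1393 CPM in dorsal striatum (median 929), a log2 difference of -4.52 ± 0.21 (SE). Pde1b, stimulated by calcium and calmodulin, read 20.0 to 74.5 CPM in cortex (median 28.7) and 217 to 437 CPM in dorsal striatum (median 369). Its paralog Pde1a went the other way, at 162 to 370.3 CPM in cortex (median 259) and 28.3 to 100.3 CPM in dorsal striatum (median 55.4). Pde7b read 6.1 to 44.6 CPM in cortex (median 17.5) and 148 to 291 CPM in dorsal striatum (median 219). Pde2a, stimulated by cyclic GMP, had medians of 72.9 and 213 CPM. Pde5a, which breaks down cyclic GMP, read 5.21 to 12.1 CPM in cortex (median 7.62) and 0.146 to 1.53 CPM in dorsal striatum (median 0.662), without overlap.

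**Figure D3:**
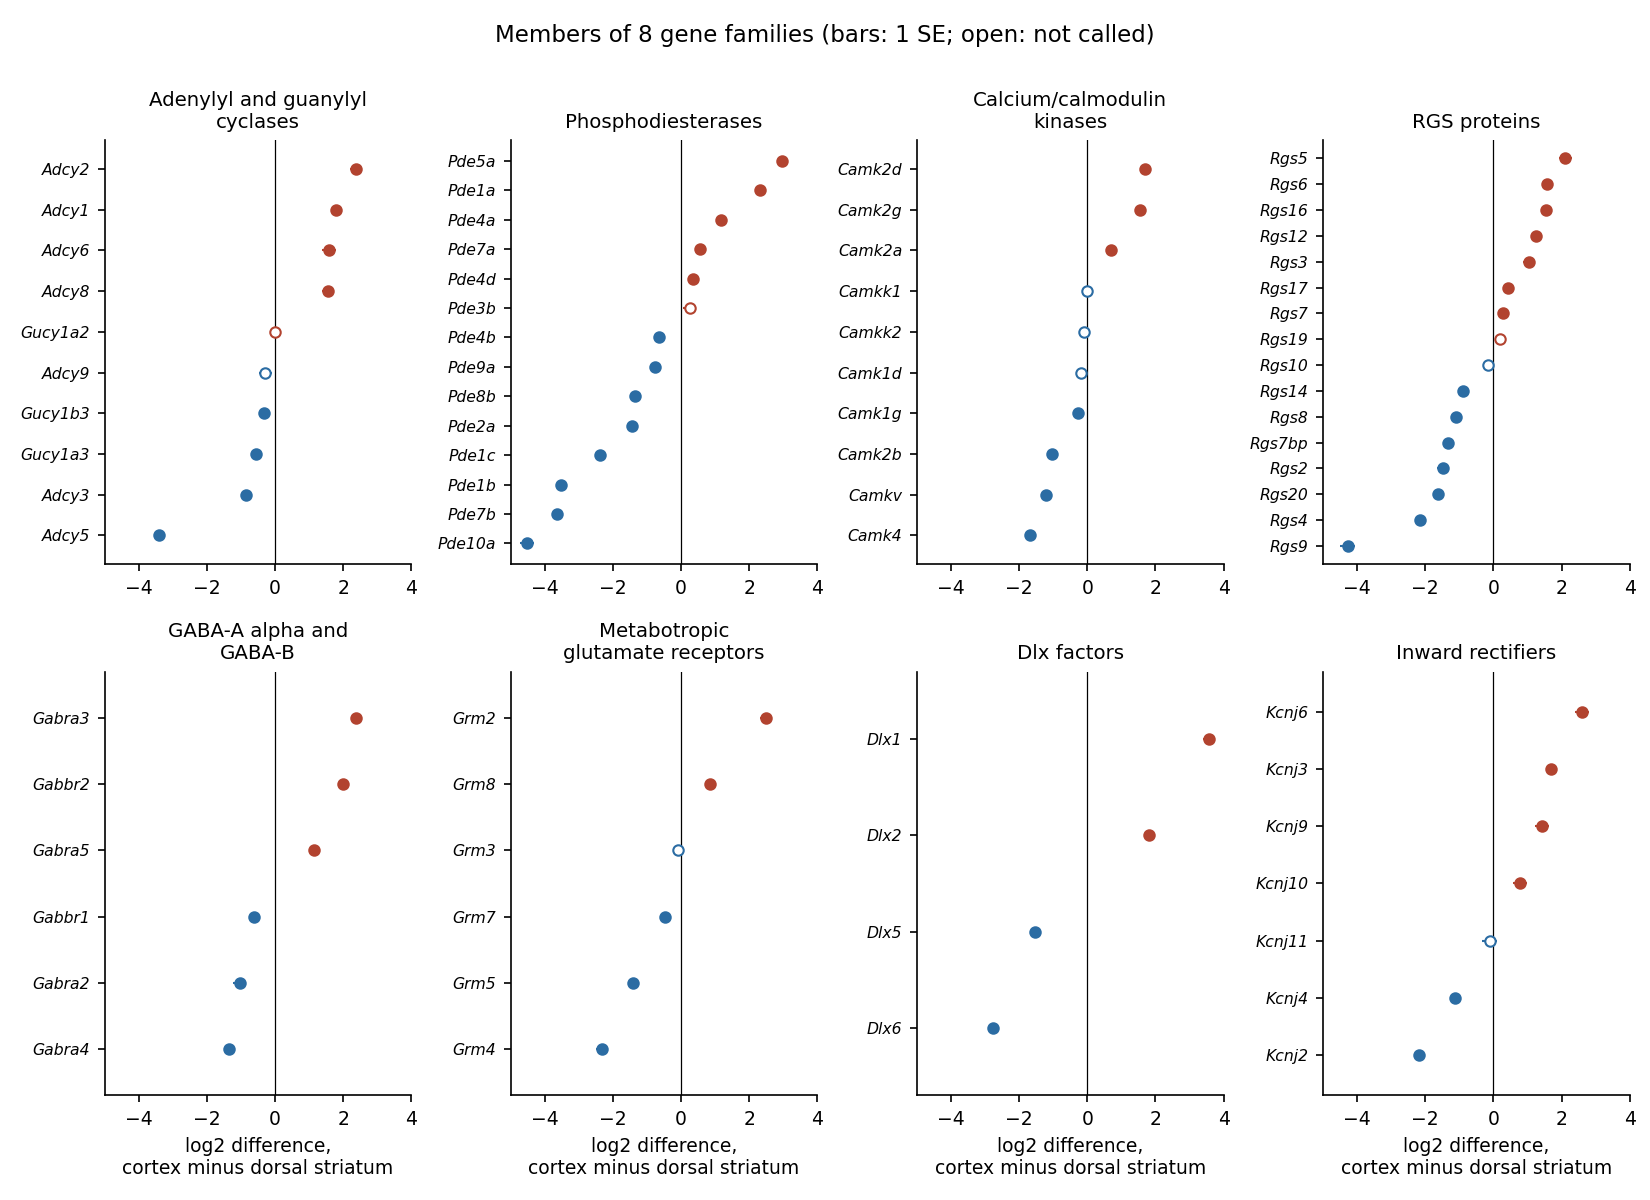
Log2 difference (cortex minus dorsal striatum) of tested members of 8 gene families, with bars of 1 SE; filled points were called and open points were not. Within families members lie on both sides of 0, as for Adcy1 (1.79) and Adcy5 (-3.39), Pde1a (2.30) and Pde1b (-3.52), and Camk2d (1.69) and Camk4 (-1.69).

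Calcium and phosphoinositide signalling divided along isoforms too. Of 30 genes tested, 15 were lower and 9 higher in cortex (median log2 difference -0.31, and -0.19 with no filter, 8 higher and 15 lower of 33). The calcium/calmodulin kinase II alpha and beta genes, whose products form the postsynaptic holoenzyme, went opposite ways. Camk2a read 586 to 1669 CPM in cortex (median 919) and 236 to 998 CPM in dorsal striatum (median 646), higher in cortex with 8 of 19 libraries above every dorsal library. Camk2b read 187 to 269 CPM in cortex (median 245) and 333 to 618 CPM in dorsal striatum (median 482), lower without overlap. Camk4, the nuclear kinase that phosphorylates CREB, read 86.1 to 182 CPM in cortex (median 126) and 266 to 592 CPM in dorsal striatum (median 374). Calcineurin A alpha, Ppp3ca, read 276 to 549 CPM in cortex (median 402) and 1030.2 to 2335 CPM in dorsal striatum (median 1312). Phospholipase C beta 4, Plcb4, had medians of 74.3 and 18.3 CPM, and its paralog Plcb1 had medians of 150.1 and 288 CPM. Ryanodine receptors, the calcium release channels, followed the same pattern, Ryr2 higher in cortex at 0.83 and Ryr3 lower at -2.16. Diacylglycerol kinase beta, Dgkb, read 67.6 to 131 CPM in cortex (median 93.0) and 251 to 476 CPM in dorsal striatum (median 319), whereas the zeta isoform Dgkz was higher in cortex, with medians of 97.1 and 51.8 CPM.

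Among 16 calcium buffers and sensors tested, 9 were higher and 6 lower in cortex (median log2 difference 0.64). The visinin-like sensor Vsnl1 read 1068 to 5560.2 CPM in cortex (median 1539) and 197 to 1039 CPM in dorsal striatum (median 315). Neurocalcin delta, Ncald, read 177 to 449 CPM in cortex (median 340.4) and 15.6 to 97.3 CPM in dorsal striatum (median 56.6). Hippocalcin, Hpca, went the other way, at 254 to 582 CPM in cortex (median 429.8) and 885 to 2421 CPM in dorsal striatum (median 1848). Pcp4, a calmodulin-binding peptide, read 333 to 1068 CPM in cortex (median 516) and 2464 to 10301 CPM in dorsal striatum (median 3005). None of these 4 overlapped between groups. Pvalb, a buffer known from basket cells, read 3.24 to 30.2 CPM in cortex (median 14.3) and 1.27 to 13.4 CPM in dorsal striatum (median 4.12), with 12 of 19 cortex libraries above every dorsal library. Calb1, a buffer of spiny neurons, read 11.3 to 24.6 CPM in cortex (median 16.2) and 52.9 to 140.2 CPM in dorsal striatum (median 77.5), without overlap.

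RGS proteins end G protein signals. Of 16 RGS genes tested, 7 were higher and 7 lower in cortex (median log2 difference 0.03, and 0.21 with no filter, 8 higher and 7 lower of 17, and -0.52 with a 5 CPM filter, 6 higher and 7 lower of 14, and -0.20 to 0.08 under the 15 alternatives that kept the filter). Rgs9, which acts on D2-type and opioid signalling in the striatum, read 1.56 to 20.2 CPM in cortex (median 3.76) and 65.3 to 124 CPM in dorsal striatum (median 93.3). Rgs4 read 105 to 194 CPM in cortex (median 146) and 383 to 940.0 CPM in dorsal striatum (median 649). Rgs7bp, which anchors RGS9 at the membrane, had medians of 143 and 332 CPM. Higher in cortex were Rgs5, at 4.34 to 16.8 CPM in cortex (median 8.54) and 0.272 to 3.34 CPM in dorsal striatum (median 1.41), and Rgs12, with medians of 25.9 and 11.8 CPM.

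Neuropeptide precursors gave some of the largest differences in both directions. Of 26 on the list, 16 passed the filter, 10 were higher and 5 lower in cortex, and the median log2 difference was 1.14, and 0.42 with no filter, 14 higher and 6 lower of 26, and 0.42 with a 5 CPM filter, 8 higher and 5 lower of 14. Besides Vip and Tac2, Cck, the cholecystokinin gene of pyramidal cells and basket cells, read 202 to 519 CPM in cortex (median 259) and 17.8 to 64.8 CPM in dorsal striatum (median 35.2). Npy read 11.1 to 37.9 CPM in cortex (median 21.0) and 1.2 to 7.07 CPM in dorsal striatum (median 2.93). Sst, the somatostatin gene, read 23.6 to 147 CPM in cortex (median 78.8) and 7.53 to 34.5 CPM in dorsal striatum (median 16.5). In Sst 17 of 19 cortex libraries lay above every dorsal library. Lower in cortex were the peptides of spiny neurons. Tac1, the substance P precursor, read 2.71 to 20.9 CPM in cortex (median 5.72) and 117 to 376 CPM in dorsal striatum (median 166), a log2 difference of -4.48 ± 0.22 (SE; limma, adjusted p = 6.1e-21). Pdyn, the dynorphin precursor, read 0.581 to 7.16 CPM in cortex (median 2.00) and 26.4 to 59.2 CPM in dorsal striatum (median 35.8). Penk, the enkephalin precursor used mainly by D2 neurons, read 11.3 to 32.4 CPM in cortex (median 17.1) and 28.3 to 79.7 CPM in dorsal striatum (median 53.2) here and 1203 to 2996 CPM (median 2201) in the D2 dorsal striatum libraries. The granins were closer between regions: Chgb and Scg2 had log2 differences of 0.42 ± 0.12 and -0.46 ± 0.12 (SE), and their ranges overlapped. In BdP and JAG libraries alone Scg2 did not pass the test (adjusted p = 0.794).

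Peptide genes on both sides of this comparison carry the core of the cyclic AMP response element close to their start. The last 100 bases before the RefSeq start (GRCm38.p6) are shown for 3 that were higher and 1 that was lower in cortex, 5′ to 3′ on the gene's strand, with TGACG or its reverse complement CGTCA in capitals. They show that the same letters stand before genes that differed in opposite directions. The Vip stretch is chr10:5639118-5639217 (+), Sst is chr16:23890845-23890944 (-), Cck is chr9:121495695-121495794 (-) and Tac1 is chr6:7554961-7555060 (+).
Vip: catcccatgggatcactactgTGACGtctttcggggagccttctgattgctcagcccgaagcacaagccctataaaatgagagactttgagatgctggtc
Sst: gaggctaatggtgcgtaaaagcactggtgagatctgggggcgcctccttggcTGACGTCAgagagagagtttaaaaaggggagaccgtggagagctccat
Cck: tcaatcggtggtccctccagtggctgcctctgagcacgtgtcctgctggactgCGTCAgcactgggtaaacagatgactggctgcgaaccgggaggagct
Tac1: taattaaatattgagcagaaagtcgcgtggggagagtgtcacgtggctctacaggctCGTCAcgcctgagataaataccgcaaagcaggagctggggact
In Sst both orientations overlap and form the full palindrome TGACGTCA, 48 bases before the start. Over the 250 bases before the start, searched on both strands, TGACG stood in 5836 of 32851 RefSeq promoter windows (17.8%) and TGACGTCA in 508 (1.55%). Of the 16 precursors tested, 13 had a window in the table, and TGACG stood in 8 of them: 6 of the 9 that were higher and 2 of the 3 that were lower in cortex. TGACGTCA stood in 3 of the 13, those of Sst, Chgb and Scg2. A match describes the letters of the window and is not a measured binding site.

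**Figure D4:**
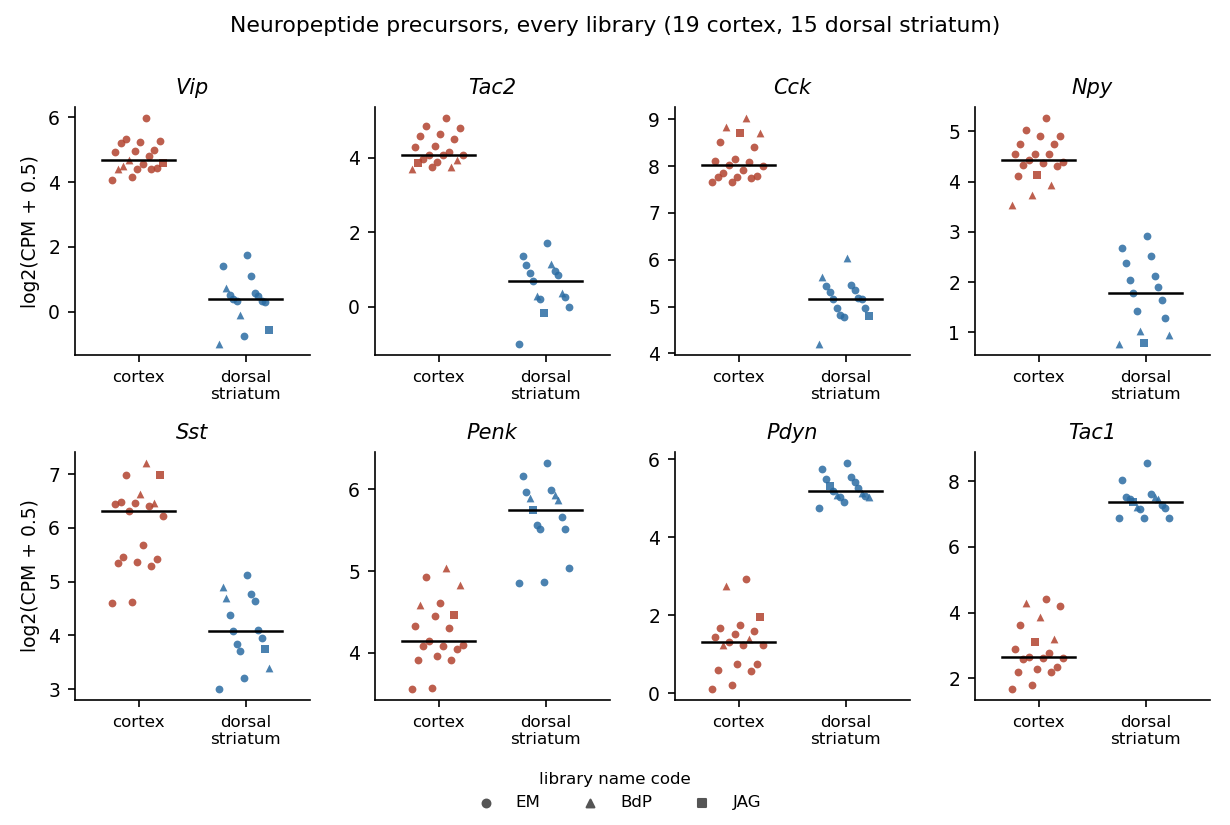
Level in every library (log2(CPM + 0.5), horizontal bars are medians) of 8 neuropeptide precursor genes in the 19 cortex and 15 dorsal libraries. Vip, Tac2, Cck and Npy lie higher in every cortex library and Sst in most, Tac1 and Pdyn lie lower in every cortex library, and Penk overlaps.

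Receptors for peptides leaned to the cortex, with 12 of 17 tested higher and 2 lower (median log2 difference 0.64, and 1.69 with a 5 CPM filter, 6 higher and 0 lower of 7). Cckbr, the brain cholecystokinin receptor, read 12.7 to 24.0 CPM in cortex (median 15.8) and 1.80 to 4.53 CPM in dorsal striatum (median 3.08). Adcyap1r1, the PACAP receptor, read 23.8 to 51.6 CPM in cortex (median 40.1) and 7.08 to 18.5 CPM in dorsal striatum (median 11). Ntsr1, a neurotensin receptor of layer 6 neurons, read 0.918 to 10.8 CPM in cortex (median 2.96) and 0.0327 to 0.767 CPM in dorsal striatum (median 0.266). Sstr3 read 7.00 to 14.7 CPM in cortex (median 9.76) and 0.454 to 3.95 CPM in dorsal striatum (median 1.71). Opioid receptors differed in direction: the delta receptor Oprd1 was higher in cortex, with medians of 8.85 and 1.2 CPM, and the mu receptor Oprm1 was lower, with medians of 3.15 and 4.35 CPM and overlap. Tacr1, the substance P receptor, was the other member lower in cortex, with medians of 0.517 and 1.48 CPM. In BdP and JAG libraries alone neither Oprm1 (adjusted p = 0.918) nor Tacr1 (adjusted p = 0.335) passed the test.

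Of 18 monoamine receptors tested, 10 were higher and 8 lower in cortex (median log2 difference 0.49, and 0.24 with no filter, 13 higher and 11 lower of 28, and 0.19 with a 5 CPM filter, 6 higher and 6 lower of 12, and 0.10 to 0.64 under the 15 alternatives that kept the filter). Adrenergic receptors divided by subtype. Both alpha-1 receptors tested, which couple to Gq, were higher in cortex. Adra1b read 8.0 to 18.1 CPM in cortex (median 11.2) and 0.183 to 2.68 CPM in dorsal striatum (median 1.13). Adra1a read 5.49 to 11.8 CPM in cortex (median 9.29) and 0.425 to 3.13 CPM in dorsal striatum (median 1.72), also without overlap. Of the alpha-2 receptors, which couple to Gi, Adra2c read 1.87 to 6.95 CPM in cortex (median 3.72) and 10.4 to 27.3 CPM in dorsal striatum (median 13.6), lower in cortex, and Adra2a was higher, with medians of 2.63 and 1.07 CPM. Serotonin receptors split likewise. Htr1a and Htr2a were higher in cortex, with medians of 6.28 and 1.30 CPM and 16.1 and 8.32 CPM. Htr1b and Htr1d, release-controlling receptor types, were lower, with medians of 2.62 and 19.7 CPM and 0.752 and 11.1 CPM, and neither overlapped between groups. Htr2c, another Gq-coupled receptor, was also lower, at a log2 difference of -0.92 ± 0.13 (SE). Drd2 read 0.209 to 2.46 CPM in cortex (median 0.964) and 2.16 to 12.2 CPM in dorsal striatum (median 5.53), a level far below its 828 to 1596 CPM (median 1146) in D2 dorsal striatum libraries.

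Of 9 acetylcholine and adenosine receptors tested, 3 were higher and 2 lower in cortex, 55.6% called beside 54.8% of all genes (median log2 difference -0.04, and 0.06 with no filter, 4 higher and 3 lower of 14, and -0.16 to 0.24 under the 15 alternatives that kept the filter). Chrm3, a Gq-type muscarinic receptor, was higher, with medians of 5.57 and 1.39 CPM. Of the Gi type, Chrm4 was lower, at 2.32 to 5.96 CPM in cortex (median 3.44) and 11.6 to 27.6 CPM in dorsal striatum (median 20.8), and Chrm2 was higher, at 5.52 to 11.3 CPM in cortex (median 8.13) and 0.528 to 3.75 CPM in dorsal striatum (median 1.46). Adora2a, the adenosine receptor of D2 neurons, read 0 to 0.793 CPM in cortex (median 0.232) and 1.54 to 10.3 CPM in dorsal striatum (median 3.15). Of 9 endocannabinoid genes tested, 5 were higher and 0 lower in cortex (median log2 difference 0.37, and 0.59 with a 5 CPM filter, 4 higher and 0 lower of 8, and 0.19 to 0.43 under the 15 alternatives that kept the filter). Those higher included the degrading enzymes Mgll, with medians of 51.4 and 23.1 CPM, and Faah, with medians of 9.35 and 2.81 CPM. The CB1 receptor gene Cnr1 read 92.4 to 185 CPM in cortex (median 120.1) and 86.3 to 182 CPM in dorsal striatum (median 127) and did not pass the test, at a log2 difference of -0.01 ± 0.10 (SE).

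Of 15 genes of glutamate and GABA synthesis and transport tested, 8 were higher and 6 lower in cortex (median log2 difference 0.30, and -0.04 with a 5 CPM filter, 6 higher and 6 lower of 12, and 0.18 to 0.36 under the 15 alternatives that kept the filter). Slc17a7, given above, was higher in cortex. Gad2, a GABA-synthesizing enzyme, read 124 to 402 CPM in cortex (median 204) and 382 to 955 CPM in dorsal striatum (median 500.2), with 14 of 15 dorsal libraries above every cortex library. Slc32a1, which loads GABA into vesicles, read 9.27 to 21.5 CPM in cortex (median 13) and 39.5 to 82.1 CPM in dorsal striatum (median 49.5), without overlap. Gad1, the other synthesizing enzyme, was lower in cortex by less, at 48.3 to 93.3 CPM in cortex (median 69.7) and 66.5 to 144 CPM in dorsal striatum (median 80.1), and only 5 of 15 dorsal libraries lay above every cortex library. Slc6a11, the mainly astrocytic GABA transporter, was higher in cortex, at 8.46 to 24.4 CPM in cortex (median 11.8) and 0.196 to 6.94 CPM in dorsal striatum (median 2.10), and moved with the astrocyte marker sum given above. Slc12a5, the chloride exporter KCC2, was lower in cortex, with medians of 63.9 and 94.4 CPM.

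Of 25 ionotropic glutamate receptor genes and auxiliary subunits tested, 12 were lower and 8 higher in cortex (median log2 difference -0.17, and -0.37 with a 5 CPM filter, 6 higher and 12 lower of 21, and -0.34 to -0.10 under the 15 alternatives that kept the filter). The core AMPA and NMDA subunits Gria2 and Grin1 were lower in cortex, with medians of 168 and 259.7 CPM and 64.3 and 104 CPM. Larger differences lay among kainate and auxiliary subunits. The kainate subunit Grik3 read 22.8 to 122 CPM in cortex (median 44.8) and 3.14 to 18.6 CPM in dorsal striatum (median 12.0). Its paralog Grik2 went the other way, at 5.85 to 14.0 CPM in cortex (median 9.69) and 16.1 to 34.6 CPM in dorsal striatum (median 27.8). Cnih3, an AMPA receptor cornichon, read 35.0 to 58.1 CPM in cortex (median 46.6) and 3.95 to 15.9 CPM in dorsal striatum (median 10.1). Cacng4, an AMPA receptor regulatory protein, read 4.94 to 13.7 CPM in cortex (median 7.10) and 38.4 to 89.4 CPM in dorsal striatum (median 56.9). Grin3a, a subunit that lowers calcium entry, was higher in cortex, with medians of 6.97 and 2.55 CPM. Of 7 metabotropic receptors tested, 4 were lower and 2 higher in cortex (median log2 difference -0.46, and -0.94 with a 5 CPM filter, 1 higher and 4 lower of 6). Grm2, which couples to Gi, read 2.63 to 9.79 CPM in cortex (median 6.48) and 0.146 to 2.24 CPM in dorsal striatum (median 0.588). Grm4, which also couples to Gi, read 2.81 to 13.6 CPM in cortex (median 4.78) and 13.9 to 52.1 CPM in dorsal striatum (median 26.1). The Gq-coupled receptor Grm5 was lower in cortex, at a log2 difference of -1.42 ± 0.10 (SE).

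GABA receptor subunits differed by isoform. Of 14 tested, 5 were higher and 5 lower in cortex (median log2 difference 0.09, and -0.05 to 0.13 under the 15 alternatives that kept the filter). Gabra3 and Gabra5 were higher, with medians of 30.0 and 5.32 CPM and 34 and 15.1 CPM. Gabra4 and Gabrd, which form extrasynaptic receptors for tonic inhibition, were lower, with medians of 20.8 and 48.2 CPM and 10.4 and 35.1 CPM. The subunits of the obligate GABA-B dimer also differed in direction: Gabbr2 read 106 to 219 CPM in cortex (median 141) and 25.4 to 49.2 CPM in dorsal striatum (median 36.7), without overlap. Gabbr1 read 82.6 to 152 CPM in cortex (median 104) and 136 to 219 CPM in dorsal striatum (median 160.1), with 11 of 15 dorsal libraries above every cortex library.

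Of 52 potassium channel genes tested, 27 were higher and 20 lower in cortex, with a median log2 difference of 0.34. G protein-gated inward rectifiers were higher in cortex. Kcnj3, the GIRK1 subunit, read 30.8 to 83.5 CPM in cortex (median 45.7) and 9.23 to 22.2 CPM in dorsal striatum (median 14.4). Kcnj6, the GIRK2 subunit, read 8.27 to 25.5 CPM in cortex (median 13.7) and 0.0842 to 4.31 CPM in dorsal striatum (median 2.37). Kcnj9, the GIRK3 subunit, had medians of 25.2 and 10.1 CPM. The strong inward rectifiers that set the resting potential of spiny neurons were lower. Kcnj2 read 4.00 to 11.4 CPM in cortex (median 6.65) and 20.9 to 51.7 CPM in dorsal striatum (median 31.4), and Kcnj4 had medians of 7.28 and 17.2 CPM. The fast Kv3 channels were higher in cortex, with Kcnc2 at 15.8 to 31.2 CPM in cortex (median 25.5) and 2.09 to 7.65 CPM in dorsal striatum (median 5.38). A-type channels and their partners were divided. Kcnd2 with its partner Kcnip2 was lower, with medians of 23.2 and 74.9 CPM and 22.1 and 111 CPM, and Kcnd3 with Kcnip1 was higher, with medians of 25.8 and 7.37 CPM and 31.4 and 3.04 CPM. Kcna4, another A-type subunit, read 4.27 to 14.9 CPM in cortex (median 6.93) and 22.0 to 56.8 CPM in dorsal striatum (median 34.1). Its beta subunit Kcnab1 read 17.9 to 38.1 CPM in cortex (median 23.9) and 108 to 205 CPM in dorsal striatum (median 158). Kcnk2, the TREK-1 leak channel, read 3.6 to 10.0 CPM in cortex (median 6.18) and 26.5 to 64.2 CPM in dorsal striatum (median 33.7), and Kcnk9, the TASK-3 leak channel, was higher in cortex, with medians of 2.42 and 0.474 CPM.

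Of 26 sodium, calcium and HCN channel genes tested, 15 were lower and 8 higher in cortex (median log2 difference -0.27). T-type calcium channels differed by isoform, both without overlap. Cacna1g read 5.94 to 13.8 CPM in cortex (median 10.4) and 0.703 to 3.80 CPM in dorsal striatum (median 1.98). Cacna1h read 2.06 to 5.33 CPM in cortex (median 3.44) and 8.70 to 22.2 CPM in dorsal striatum (median 15.8). L-type channels did too: Cacna1c was lower in cortex, with medians of 10.7 and 24.7 CPM, and Cacna1d was higher, with medians of 11.8 and 7.58 CPM, a call lost in BdP and JAG libraries alone (adjusted p = 0.1). Cacna2d3, an auxiliary subunit, read 6.90 to 12.6 CPM in cortex (median 9.20) and 34.2 to 57.1 CPM in dorsal striatum (median 48.1).

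Genes of vesicle release leaned to the cortex, 22 of 36 tested higher and 8 lower, with a median log2 difference of 0.47. Common release genes were among those higher: Stx1a, a SNARE protein, read 35.2 to 81.4 CPM in cortex (median 63.2) and 5.69 to 24.7 CPM in dorsal striatum (median 16.2). Snap25, its partner, read 5554 to 12045 CPM in cortex (median 8728) and 2536 to 6734 CPM in dorsal striatum (median 5079.9). The synapsins Syn1 and Syn2 were higher, at log2 differences of 1.19 ± 0.19 and 1.30 ± 0.08 (SE). Isoforms made the exceptions. Sv2b was higher and Sv2c lower in cortex, with Sv2c at 2.09 to 12.0 CPM in cortex (median 3.88) and 26.2 to 63.4 CPM in dorsal striatum (median 45.5). The priming factor Unc13b was higher and Unc13c lower, with Unc13c at 2.27 to 9.49 CPM in cortex (median 3.92) and 28.5 to 63.0 CPM in dorsal striatum (median 48.3). The calcium sensor Doc2a was higher and Doc2b lower, with Doc2b at 1.76 to 10.3 CPM in cortex (median 2.28) and 36.0 to 93.8 CPM in dorsal striatum (median 52.0), a log2 difference of -4.01 ± 0.19 (SE).

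Postsynaptic scaffold genes leaned to the striatum, 12 of 22 tested lower and 5 higher in cortex (median log2 difference -0.28). Dlg4, which encodes PSD-95, had medians of 159.5 and 213 CPM, and Shank3 had medians of 16.7 and 40.7 CPM, both lower in cortex. The call of Dlg4 was lost in EM libraries alone (adjusted p = 0.0618) and in the 22 of them paired by name (adjusted p = 0.127, and 0.122 with the pairs as a block). Shank1, the paralog of Shank3, was higher, at 117 to 375 CPM in cortex (median 184) and 14.9 to 101 CPM in dorsal striatum (median 54.2). Dlgap1, which joins PSD-95 to the Shank proteins, was also higher, at 205 to 321 CPM in cortex (median 272) and 36.6 to 85.4 CPM in dorsal striatum (median 65.5). Homer1 was lower and Homer2 higher in cortex, at log2 differences of -0.89 ± 0.14 and 2.34 ± 0.12 (SE).

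Guidance genes of the semaphorin and plexin families were higher in cortex for 14 of 24 tested and lower for 4, with a median log2 difference of 0.82. Sema3c, a secreted ligand, read 3.82 to 9.55 CPM in cortex (median 6.35) and 0.113 to 1.07 CPM in dorsal striatum (median 0.536). The receptor Plxna1 read 17.8 to 35.5 CPM in cortex (median 24.5) and 1.96 to 7.54 CPM in dorsal striatum (median 4.39). The largest exception was Plxnd1, a semaphorin receptor, at 1.28 to 7.93 CPM in cortex (median 2.88) and 15.3 to 33.7 CPM in dorsal striatum (median 19.5). Among 27 ephrin, Slit and netrin genes tested, 13 were higher and 10 lower (median log2 difference 0.39, and 0.10 with no filter, 15 higher and 12 lower of 35, and -0.33 with a 5 CPM filter, 7 higher and 9 lower of 18, and 0.05 to 0.50 under the 15 alternatives that kept the filter). Slit1 was higher in cortex, at 3.57 to 11.9 CPM in cortex (median 6.26) and 0.142 to 1.71 CPM in dorsal striatum (median 1.12), and its receptors Robo1 and Robo2 were lower, with medians of 10.1 and 23.7 CPM and 24.7 and 44.5 CPM. Ephb1 read 1.69 to 7.44 CPM in cortex (median 3.47) and 15.5 to 29.4 CPM in dorsal striatum (median 20.2) and Ephb2 was higher in cortex, with medians of 2.02 and 0.536 CPM.

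Of 24 cadherins and protocadherins tested, 15 were higher and 5 lower in cortex (median log2 difference 0.41). The largest differences were in Pcdh15, with medians of 3.91 and 0.915 CPM, and Cdh8, which read 4.26 to 11.6 CPM in cortex (median 5.74) and 19.5 to 39.6 CPM in dorsal striatum (median 27.9). Synaptic adhesion genes were nearly balanced, 14 higher and 13 lower of 38 tested (median log2 difference -0.06, and -0.17 to 0.05 under the 15 alternatives that kept the filter). EdgeR and median-ratio scaling each gave 12 higher and 13 lower, and EM libraries alone gave 14 higher and 11 lower. Cbln2 and C1ql3, secreted synapse organizers of the C1q family, were higher in cortex, without overlap. Cbln2 read 13 to 24.4 CPM in cortex (median 18) and 0.817 to 3.40 CPM in dorsal striatum (median 1.77). C1ql3 read 11.9 to 56.8 CPM in cortex (median 20.8) and 0.73 to 4.16 CPM in dorsal striatum (median 2.74). The pentraxin Nptx1 and its receptor Nptxr were also higher, with medians of 110.5 and 24.9 CPM and 205 and 50.5 CPM. Among neurexins, the presynaptic partners of many such organizers, Nrxn2 was higher and Nrxn3 lower in cortex, with medians of 30.8 and 13.5 CPM and 108 and 140.4 CPM. Flrt3, an adhesion protein that binds latrophilins, read 5.25 to 14.9 CPM in cortex (median 8.04) and 22.1 to 45.5 CPM in dorsal striatum (median 30.3).

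Of 14 matrix genes tested, 8 were higher and 3 lower in cortex (median log2 difference 0.64, and 0.10 with no filter, 10 higher and 5 lower of 24, and 0.38 with a 5 CPM filter, 5 higher and 2 lower of 10). The link proteins of perineuronal nets were higher, with Hapln4 at 16.2 to 37.9 CPM in cortex (median 29.1) and 3.40 to 9.40 CPM in dorsal striatum (median 7.13) and Hapln1 with medians of 3.40 and 0.512 CPM. Sparcl1, which astrocytes secrete and which some neurons also make, read 62.0 to 156 CPM in cortex (median 79.8) and 9.87 to 47.0 CPM in dorsal striatum (median 21.4) and moved with the astrocyte marker sum. Reln, the reelin gene of cortical neurogliaform cells, was lower in cortex, at 3.40 to 9.94 CPM in cortex (median 7.44) and 27.5 to 55.5 CPM in dorsal striatum (median 42.8). Lamp5, listed as 6330527O06Rik, is an interneuron marker and not one of the matrix genes counted here. It was likewise lower in cortex, with medians of 13.4 and 36.7 CPM. Spock3, a testican proteoglycan, read 3.08 to 8.61 CPM in cortex (median 4.53) and 31.9 to 69.8 CPM in dorsal striatum (median 51.9).

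Growth factors and their receptors were higher in cortex for 19 of 30 tested and lower for 7 (median log2 difference 0.55, and 0.36 to 0.65 under the 15 alternatives that kept the filter). Bdnf read 8.02 to 15.9 CPM in cortex (median 11.4) and 0.544 to 9.19 CPM in dorsal striatum (median 1.69), a log2 difference of 2.44 ± 0.18 (SE), with 15 of 19 cortex libraries above every dorsal library. Its receptor Ntrk2 had medians of 84.9 and 69.6 CPM, and its call was lost with edgeR (adjusted p = 0.0953) and in BdP and JAG libraries alone (adjusted p = 0.158). Ntrk3, the neurotrophin-3 receptor, was lower in cortex, with medians of 15 and 24.9 CPM. Bmp3, a member of the bone morphogenetic protein family, read 14.7 to 43.3 CPM in cortex (median 24.7) and 1.06 to 4.91 CPM in dorsal striatum (median 2.37). Erbb4, the neuregulin receptor of interneurons, read 15.4 to 38.7 CPM in cortex (median 27.3) and 5.05 to 12.3 CPM in dorsal striatum (median 8.10), and its ligand Nrg3 was also higher, with medians of 19.1 and 9.23 CPM. Against this direction went Tgfa, a ligand of the EGF receptor, at 0.807 to 8.84 CPM in cortex (median 2.99) and 43.3 to 89.0 CPM in dorsal striatum (median 56.3), with no overlap.

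The Wnt list had 38 members, of which 17 passed the filter, 10 were higher and 5 lower in cortex (median log2 difference 1.32, and 0.28 with no filter, 18 higher and 8 lower of 37, and 2.06 with a 5 CPM filter, 3 higher and 2 lower of 5). Besides Dkk3, the ligand Wnt7b read 2.77 to 8.04 CPM in cortex (median 5.28) and 0 to 1.01 CPM in dorsal striatum (median 0.328). Rspo2, an R-spondin that boosts Wnt signalling, read 4.60 to 15.3 CPM in cortex (median 7.47) and 0.219 to 1.41 CPM in dorsal striatum (median 0.741). Wnt4 and Wnt9a were also higher, with medians of 4.66 and 0.949 CPM and 3.85 and 0.307 CPM. Lower in cortex was Wnt2, with medians of 0.452 and 2.5 CPM. The receptors Lrp6 and Fzd3 were lower by less, at log2 differences of -0.51 ± 0.10 and -0.32 ± 0.11 (SE).

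Retinoic acid acts through nuclear receptors that bind DNA as heterodimers. Of 10 genes tested, 6 were lower and 2 higher in cortex (median log2 difference -0.46, and 0.04 with no filter, 5 higher and 6 lower of 16, and -0.17 with a 5 CPM filter, 2 higher and 3 lower of 6). Rarb read 2.13 to 13.2 CPM in cortex (median 3.81) and 57.9 to 136 CPM in dorsal striatum (median 75.1), a log2 difference of -4.07 ± 0.16 (SE; limma, adjusted p = 1.4e-23). Rxrg, its heterodimer partner, read 0.21 to 6.95 CPM in cortex (median 1.47) and 23.8 to 50.5 CPM in dorsal striatum (median 34.7). Rara was higher in cortex, 11.8 to 27.9 CPM in cortex (median 17.7) and 0.785 to 7.23 CPM in dorsal striatum (median 5.67). Crabp1, which binds retinoic acid in the cytoplasm, read 0 to 1.59 CPM in cortex (median 0.409) and 2.59 to 6.83 CPM in dorsal striatum (median 4.47). Aldh1a1, a retinaldehyde dehydrogenase, was the other member higher in cortex, with medians of 8.68 and 4.18 CPM. Rarb is the textbook target of its own receptor class, and the window before its RefSeq start (GRCm38.p6, chr14:16575477-16575576, minus strand) is shown because it holds the receptor's direct repeat, in capitals.
Rarb: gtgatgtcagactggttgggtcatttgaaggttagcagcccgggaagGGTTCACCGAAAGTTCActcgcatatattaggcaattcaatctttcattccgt
The repeat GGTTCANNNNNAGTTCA begins 53 bases before the start. Its letters are those of the Rarb element itself with the spacer left free, so a match in Rarb was fixed in advance. Other spellings of the repeat were not searched. Searched on both strands, these letters stood in 2 of the 32851 windows of 250 bases (0.00609%). Of the 10 retinoic acid genes tested, 9 had a window and only that of Rarb held it in these exact letters. This describes the sequence alone.

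Activity-induced genes did not move together. Of 22 tested, 10 were higher and 8 lower in cortex (median log2 difference 0.04, and 0.17 with no filter, 11 higher and 8 lower of 23, and -0.08 with a 5 CPM filter, 7 higher and 8 lower of 17, and -0.04 to 0.06 under the 15 alternatives that kept the filter), and edgeR and median-ratio scaling each gave 9 higher and 9 lower. Jun read 8.39 to 18 CPM in cortex (median 13.8) and 1.32 to 6.65 CPM in dorsal striatum (median 3.28), and Fos was higher in cortex with medians of 4.88 and 2.34 CPM. Nr4a2, also a marker of deep cortical neurons, had medians of 93.5 and 43.3 CPM. The zinc-finger genes Egr1, Egr2, Egr3 and Egr4 were all lower in cortex, with log2 differences of -0.68, -1.49, -0.65 and -1.28. Egr1 read 164 to 442 CPM in cortex (median 284) and 315 to 678 CPM in dorsal striatum (median 449), so its groups overlapped.

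Of 24 small GTPase signalling genes tested, 10 were higher and 11 lower in cortex (median log2 difference -0.11, and -0.04 with no filter, 11 higher and 10 lower of 28, and -0.18 with a 5 CPM filter, 8 higher and 11 lower of 22, and -0.21 to -0.04 under the 15 alternatives that kept the filter). Kalrn, an exchange factor of dendritic spines, read 1322 to 7611 CPM in cortex (median 2794) and 369 to 1499 CPM in dorsal striatum (median 689), with 18 of 19 cortex libraries above every dorsal library. Rasgrp2, the calcium-regulated activator of Rap1, read 0.927 to 3.81 CPM in cortex (median 1.62) and 11.5 to 35.0 CPM in dorsal striatum (median 27.3), and Rap1gap, which inactivates Rap1, was also lower in cortex, with medians of 19.2 and 71.3 CPM. Hras, listed as Hras1, was lower in cortex, with medians of 41.5 and 76.2 CPM.

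How many respiratory and ribosomal genes were called depended on the setting. Of 74 subunits of the respiratory chain and ATP synthase tested, 3 passed the test upward in cortex and 6 downward, the latter 8.11% against 22.5% of all genes. With edgeR 26 were lower (35.1% against 29.8% of all genes), and with name code as a covariate 24 (32.4% against 24.8%). In EM libraries alone 22 were lower (29.7% against 21%), and with median-ratio scaling 15 (20.3% against 27.1%). Without any 1 of dorsal replicates 1, 2, 3 and 15, 11 or 12 were lower. The share of respiratory genes lower was thus below that of all genes in the first test and with median-ratio scaling, and above it with edgeR, with name code as a covariate and in EM libraries. Of 79 cytosolic ribosomal protein genes tested, 1 was called higher and 4 were called lower (5.06%). Those lower numbered 22 with name code as a covariate (27.8%), 17 with edgeR (21.5%), 16 in EM libraries alone (20.3%) and 14 with array weights (17.7% against 26.1% of all genes), and 10 without dorsal replicate 1 and 7 without dorsal replicate 2 or 15. Of these settings, name code as a covariate alone gave a ribosomal share above that of all genes. The median log2 differences were -0.15 and -0.10, below the 0.05 of all genes, and both were negative under all 17 alternatives. The median of all genes was also negative with edgeR (-0.050), quantile normalization (-0.035) and median-ratio scaling (-0.013).

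**Figure D5:**
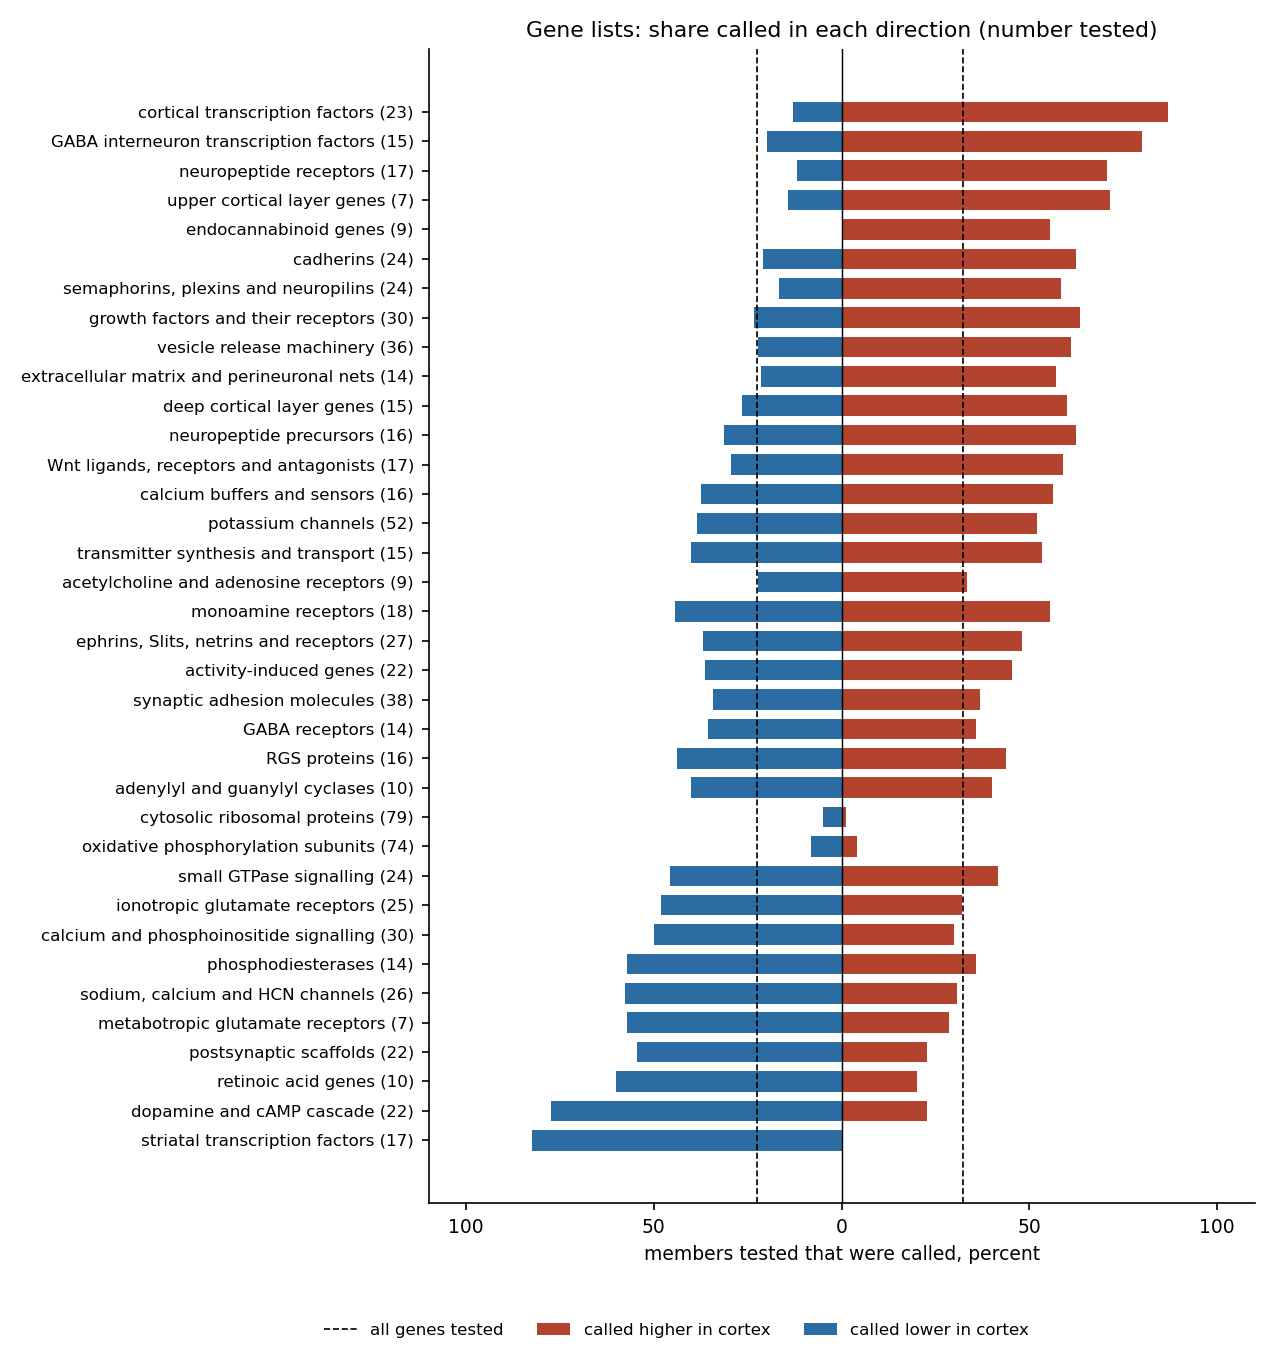
Share of the tested members of each gene list called higher (right) and lower (left) in cortex, in percent, with the number tested beside each name; dashed lines mark the shares over all 11654 genes, 32.3% higher and 22.5% lower. Cortical transcription factors and peptide receptors lie right, and striatal factors and the dopamine cascade lie left.

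The comparison was repeated within name codes. In EM libraries alone (15 cortex, 11 dorsal) 6105 genes were called, and in BdP and JAG libraries alone (4 against 4) 4566.

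The same genes can be placed beside the D1 ventral striatum libraries (n = 15), which share the dorsal libraries as their comparison. Ppp1r1b read 639 to 798 CPM (median 700.0) there and Six3 read 43.9 to 93.8 CPM (median 51.8). Pcp4 read 872 to 1902 CPM (median 1123) in ventral striatum, a dorsal minus ventral log2 difference of 1.54 ± 0.15 (SE, adjusted p = 6.4e-10) by limma. Ebf1, at 6.53 to 20.7 CPM (median 12.2), differed by 1.30 ± 0.15 (SE, adjusted p = 1.8e-08). Both Pcp4 and Ebf1 were thus lower in ventral than in dorsal striatum, and their ventral medians still lay above their cortex medians. Pde1a, the phosphodiesterase that was low in dorsal striatum, read 144 to 226 CPM (median 179) in ventral striatum, a difference of -1.78 ± 0.14 (SE, adjusted p = 2.4e-12). Calb2, the calretinin gene, read 0.89 to 9.66 CPM in cortex (median 3.67) and 0 to 3.55 CPM in dorsal striatum (median 0.473), and 2.37 to 8.74 CPM (median 5.13) in ventral striatum.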

How the data were processed

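Per the labels' protocols, 50-base read pairs were sequenced from cDNA amplified from polyA RNA. Trim Galore 0.4.2, cutadapt 1.9.1, FastQC, HISAT2 and the build GRCm38 are named in the submitters' processing notes; the counting program, the annotation and the scaling total are not given in the sources used here. The authors deposited CPM values for 25899 gene symbols in 79 libraries, and all columns were matched to samples by name. Dividing the deposited CPM by the worth of 1 read (0.0124 to 0.0466 CPM) gave whole numbers, within 0.001, for 100% of values, and edgeR was run on those reads. No molecular identifiers are described, so depth covers counting error only.

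Genes with at least 1 CPM in at least 15 of 34 libraries entered limma 3.58.1 (lmFit and trended eBayes, under R 4.3.3) as log2(CPM + 0.5), two-sided, with Benjamini-Hochberg adjustment over all genes tested. The pseudocount understates changes of genes with low CPM. Alternatives were other pseudocounts and filters, other scalings, edgeR 4.0.16 on recovered reads, name codes, covariates, array weights and each library left out. The gene lists and genes were chosen with earlier results of these data known: the 12 genes with the largest difference on each side, if their higher group averaged 5 CPM or more, plus Drd1a and list genes; some genes are not reported here. On the lists were 943 genes, of which 940 were in the table and 811 passed the filter. Whether cortex and striatum came from the same mice is not given in the labels, and replicate numbers were given in accession order; EM libraries paired by title number and 3 left-out libraries were tried after seeing the data. Promoter sequences are RefSeq's, GRCm38.p6.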

Additional observations from a re-analysis of the deposited data

How the results depend on the processing

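The 6 counts of called genes stayed within 1.5 times of their values under the 17 alternatives and with each of 34 libraries left out, except with at least 5 CPM required, which tested 8242 genes: 1193 genes then differed at least 2-fold and 730 were higher in cortex. With a library left out, 6222 to 6605 genes were called, 3652 to 3837 higher and 2520 to 2776 lower, and 1839 to 1890 by at least 2-fold (1212 to 1260 higher, 615 to 645 lower). Of 252 genes named, Cnr1 alone changed sign, at log2 differences of 0.12 in EM libraries, 0.0468 with array weights, 0.0242 with quantile normalization, 0.00856 with name code as a covariate, 0.0226 in EM libraries paired by name with or without a block and 0.0120 with the 3 libraries that stand apart left out, and between -0.0482 and 0.0282 with a library left out; in BdP and JAG libraries it was -0.35 (adjusted p = 0.0303, limma). Calls were lost in 23 of 4260 values under the alternatives, all given beside the genes, and in 9 values, all of Prkar1a, with a library left out. Of 36 gene lists, 26 kept the sign of their median under all alternatives; the RGS list changed it in 6 and the activity-induced list in 7, and the values of all 10 that changed it are given beside their counts. The labels state no pairing. In an alternative chosen after seeing the data, 11 EM cortex and 11 EM dorsal libraries were paired by title numbers that run cortex, ventral, dorsal, and all 11 pairs held the same number of males. Deviations from the group means correlated at -0.192 to 0.448 (median 0.127, against 0.0176 for other pairings; 6 of 11 over 0.1), and 4 cortex and 3 dorsal libraries correlated best with their own number. Not every pair passed 0.1, which does not show that the libraries are independent, and the numbers were not taken as pairs. With them as a replicate block 5609 genes were called (3258 higher, 2351 lower), and 5569 without (3215 higher, 2354 lower); 1773 differed at least 2-fold in both. Genes of low CPM, such as Crabp1 or Isl1 in cortex, rest on few reads, and CPM is not scaled by gene length, so sums over markers weigh long genes more.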

Other observations

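Deep-layer genes of the cortex did not share a direction. Of 15 tested, 9 were higher and 4 lower in cortex (median log2 difference 1.03), against 32.3% and 22.5% of all genes tested. Ldb2, a LIM domain cofactor of layer 5 neurons, read 55.6 to 110.3 CPM in cortex (median 79.8) and 16.8 to 41.7 CPM in dorsal striatum (median 29.0). Etv1, a layer 5 factor, was higher with overlap, with medians of 35.4 and 19.9 CPM; it did not pass the test in BdP and JAG libraries (log2 difference 0.22, adjusted p = 0.217, limma). Cplx3, a complexin of subplate-derived neurons, was also higher, with medians of 16.6 and 8.03 CPM. Tle4, a layer 6 corepressor that spiny neurons also express, read 18 to 53.0 CPM in cortex (median 29.8) and 57.3 to 114 CPM in dorsal striatum (median 66.6), without overlap. Syt6, a synaptotagmin of layer 6, read 9.32 to 41.5 CPM in cortex (median 16.5) and 38.5 to 136 CPM in dorsal striatum (median 71.0), lower in cortex with overlap.

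Isoforms of 3 further families had differences of opposite sign. The transmembrane AMPA receptor proteins Cacng7 and Cacng3 had log2 differences of 0.56 ± 0.11 and -0.32 ± 0.07 (SE), and Cacng7 did not pass the test in BdP and JAG libraries (0.27, adjusted p = 0.209, limma). The synaptotagmins Syt17 and Syt2 had 3.07 ± 0.23 and -2.04 ± 0.12. The fibroblast growth factors Fgf1, a secreted ligand, and Fgf11, an intracellular channel partner, read medians of 18.3 and 3.66 CPM and 17.9 and 41.6 CPM. The neuropilins Nrp1 and Nrp2, coreceptors of class 3 semaphorins, were both higher in cortex, at 1.00 ± 0.14 and 1.31 ± 0.19 (SE). Slc17a8, the third vesicular glutamate transporter, read 1.79 to 7.58 CPM in cortex (median 3.91) and 0 to 1.68 CPM in dorsal striatum (median 0.315), without overlap.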
